A study of Mus musculus with 26 samples.

Results

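Brown adipose tissue of mice lacking Klf15 in brown adipocytes was compared between cold combined with fasting and feeding at room temperature. The comparison holds 6 of the 26 libraries of the study: 3 labelled K15-BKO BAT cold+fasting and 3 labelled K15BKO BAT RT, whose treatment is given as room temperature and fed. Of 48432 genes in the deposited table, 11739 had at least 1 FPKM in at least 3 of these 6 libraries and were kept, and 11738 of them could be tested. FPKM is a level scaled to transcript length and to the mapped fragments of the library.

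All mice of both groups carried K15F/F, the floxed Klf15 alleles, together with Ucp1-Cre/+, in which Ucp1 sequences switch on Cre recombinase in brown adipocytes. Vessels, immune cells and stroma of the tissue, in which Ucp1 is not active, keep the gene. The animals were 2 months old. Values of other groups of the study are given below only beside this comparison. They are BKO mice in a cold challenge (n = 4 libraries) and BKO mice fasted at room temperature (n = 3). FF mice (KLF15 flox/flox, with no Cre named in the label) are given in cold plus fasting and fed at room temperature (n = 3 each). The spread behind the p-values was pooled over all 26 libraries of 8 groups. That pool also holds FF mice in a cold challenge (n = 4) and fasted at room temperature (n = 3). Temperatures and durations of cold and fasting, and whether mice of the cold challenge had food, are not given in the sources used here. The labels do not say that the libraries of a group came from separate animals. The p-values therefore measure the pooled spread between libraries within groups, which may be technical.

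Brown fat burns lipid and glucose to make heat. In the cold, sympathetic nerves release noradrenaline, which acts through beta adrenergic receptors and cyclic AMP on lipolysis and on genes such as Ucp1, whose product uncouples mitochondrial respiration from ATP synthesis. Fasting lowers insulin and is known to turn down lipid synthesis in adipose tissue and to raise genes of fatty acid use. KLF15 is a zinc finger transcription factor known for control of amino acid breakdown and of fuel choice in fasting.

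The 6 libraries summed to 416377 to 501068 FPKM, and 11345 to 11840 genes per library reached 1 FPKM; read counts were not used here, so their depth is unknown. Cold plus fasting replicate 3 stood apart: it had the highest sum and the fewest genes at 1 FPKM, and its correlation with replicates 1 and 2 over the genes kept was 0.981 and 0.984, against 0.991 between those. The fed libraries correlated at 0.981 to 0.987 with each other, and libraries of different groups at 0.964 to 0.976. Library numbers in the labels were 25, 24 and 21 for cold plus fasting and 30, 32 and 29 for fed, so that any effect of these blocks and of the condition cannot be told apart. Acly, Lep and other genes that moved strongly on fasting at room temperature stood near fed or cold levels in the libraries labelled cold plus fasting (values below), and the condition is named here by its label. The labelled tissue was checked by 12 brown adipocyte markers, which summed to 26013 to 32532 FPKM in cold plus fasting and 21944 to 24468 FPKM in fed libraries, with no marker at 0 in all 3 libraries of a group.

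Klf15, the targeted gene (ENSMUSG00000030087.11, chromosome 6, 90462576 to 90475238), was measured at 2.86, 3.34 and 3.82 FPKM in cold plus fasting and 3.15, 3.67 and 5.13 FPKM in fed BKO libraries. The groups overlapped, and the log2 difference of -0.19 (SE 0.19, adjusted p = 0.519) did not pass the threshold. Every one of these values lay below the FF libraries, at 21.7, 16.4 and 15.4 FPKM in cold plus fasting and 29.8, 30.6 and 23.5 FPKM when fed. Fasted BKO libraries at room temperature were higher than both, at 8.92, 7.94 and 8.82 FPKM. Gpd1, Fasn and Scd1, abundant genes of glycerol and fatty acid synthesis, have values of exactly 0 that were taken as failed estimates. Gpd1 is listed at 0 in the 3 cold plus fasting libraries and stood at 3492, 3442 and 3769 FPKM in the fed ones, and Fasn and Scd1 are listed at 0 in all 6, so none of the 3 could be compared.

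Of all genes tested, 1248 rose (10.6%) and 1083 fell (9.23%), together 19.9%, at an adjusted p under 0.05. The test was limma on log2(FPKM + 1), two-sided, a scale that understates the fold of low genes, and all differences below are on it unless called ratios. Among the genes that passed, 1144 rose and 971 fell without overlap between the 3 and 3 libraries; over all genes tested, 17.1% lay wholly higher and 15% wholly lower. Of the genes that passed, 95 rose and 95 fell by 1 or more. The median difference over all genes was -0.00102. Fitted on the 6 libraries alone, the test called 815 genes, of which 787 were among the 2331. Without cold plus fasting replicate 3 it called 1402, and without fed replicate 2 it called 1450. Restricting the test to a mean of at least 5 FPKM gave 1029 rises and 551 falls, a higher share of rises.

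**Figure D1:**
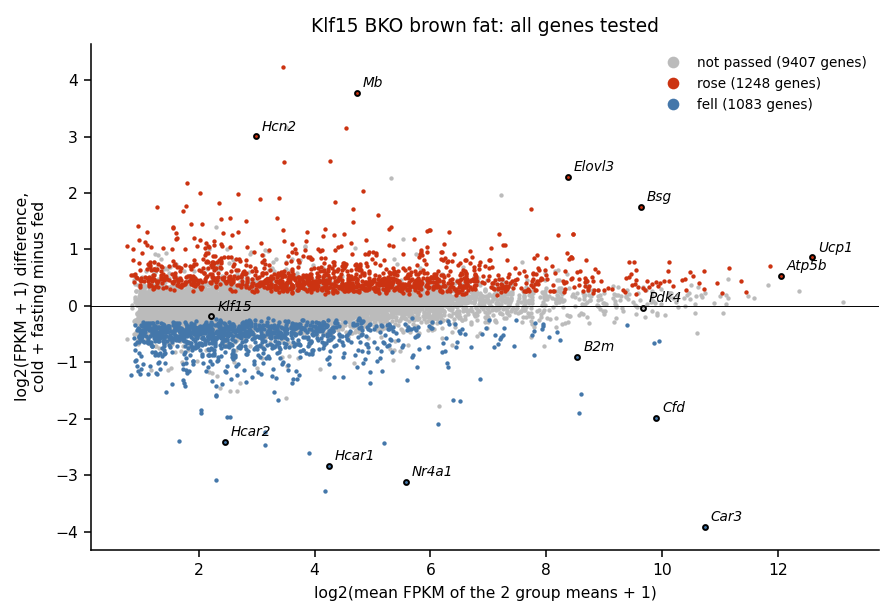
Difference between cold plus fasting and fed BKO libraries (vertical axis, log2(FPKM + 1)) against mean level (horizontal axis, log2 scale) for every gene tested, 1 point per gene. The 1248 genes that rose (red) and the 1083 that fell (blue) lie around a median near 0, with Mb and Car3 among the farthest from it.

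The genes that rose most included an oxygen-binding protein, an ion channel and the lipid enzymes Elovl3 and Acot1. Mb, myoglobin, the oxygen-binding haem protein (ENSMUSG00000018893.14, chromosome 15, 77015487 to 77050670), stood at 49.9, 53.8 and 41.5 FPKM in cold plus fasting and 2.01, 4.98 and 1.57 FPKM in fed libraries, a ratio of means of 16.9. Its log2 difference was 3.77 (SE 0.32, adjusted p = 3.1e-08). Mb is also a skeletal muscle marker; the other 12 markers of that list summed to 66.9, 76.8 and 157 FPKM in cold plus fasting and 56.6, 131 and 50.7 FPKM in fed libraries, highest in cold plus fasting replicate 3 and fed replicate 2. Acta1, the skeletal muscle actin, was at 9.94, 13.96 and 27.2 FPKM against 6.66, 19.97 and 2.15 FPKM, Ckm, muscle creatine kinase, at 4.995, 6.93 and 18.7 against 3.05, 12.3 and 1.23 FPKM, and the groups overlapped for both. Within the cold plus fasting group Mb was lowest in replicate 3, where the muscle sum was highest, and within the fed group both were highest in replicate 2 and lowest in replicate 3. The part of muscle tissue in the Mb values was not tested. In whole tissue, fewer cells of a type and less RNA per cell cannot be told apart.

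Hcn2, a cation channel opened by hyperpolarization and cyclic nucleotides, stood at 14.9, 14.96 and 9.68 FPKM against 0.634, 0.952 and 0.646 FPKM, with a log2 difference of 3.00 (SE 0.18, adjusted p = 6.98e-11). Its neighbour on the chromosome Bsg, basigin, the membrane partner of monocarboxylate transporters, was at 1175, 1188 and 1304 against 386, 339 and 361 FPKM, a difference of 1.75 (SE 0.10, adjusted p = 5.89e-11). The pair lies at chromosome 10, 79704491 to 79711969 (Bsg) and chromosome 10, 79716634 to 79736108 (Hcn2), and in both genes every cold plus fasting library was above every fed one.

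Elovl3, the elongase of very long chain fatty acids that is known as a cold marker of brown fat, was at 574, 510.4 and 523 FPKM against 205, 127 and 49.1 FPKM. The fed libraries spread widely and still lay below all cold plus fasting libraries, with a difference of 2.29 (SE 0.42, adjusted p = 0.000681). Acot1, a thioesterase that frees fatty acids from coenzyme A, was at 5.19, 5.21 and 5.997 against 0.503, 1.03 and 0.357 FPKM (log2 difference 2.01, SE 0.39, adjusted p = 0.000933). Acot1 has near-identical paralogs, Acot2 among them, between which reads may have been split. Acot2, the mitochondrial form, was at 38.02, 47.9 and 38.5 against 21.9, 20.4 and 20.02 FPKM and differed by 0.96 (SE 0.16, adjusted p = 0.000296).

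Got1, the cytosolic aspartate aminotransferase of the malate-aspartate shuttle, was at 37.9, 35.8 and 40.1 against 11.4, 11.1 and 10.04 FPKM, a difference of 1.71 (SE 0.17, adjusted p = 4.45e-07). Slc25a34, a mitochondrial carrier, was at 42.99, 43.96 and 47.97 against 10.3, 9.91 and 10.3 FPKM and differed by 2.04. The remaining members of the 12 largest rises were Marc1 (1.91), an enzyme that reduces N-hydroxylated compounds, Tesc (1.90), a calcium-binding protein, Ttc25 (1.84), Sult5a1 (1.83), a sulfotransferase family member, and Gmpr (1.72), guanosine monophosphate reductase. Of these 5, Gmpr alone lost its call in the fit of the 6 libraries (adjusted p = 0.0778); its fed values were 33.9, 179 and 129.97 FPKM, of which replicate 1 was far the lowest.

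The largest fall was that of Car3, carbonic anhydrase 3, an abundant cytosolic enzyme of fat cells (ENSMUSG00000027559.5, chromosome 3, 14863512 to 14872523). It stood at 192, 222 and 219.8 FPKM in cold plus fasting and at 3163, 2928 and 3519.6 FPKM in fed libraries, so that the fed mean was 15.2 times the other. The log2 difference was -3.92 (SE 0.22, adjusted p = 5.89e-11). Hcar1 and Hcar2, the lactate and the beta-hydroxybutyrate and niacin receptors that restrain lipolysis in fat cells, both fell. Hcar1 was at 3.91, 3.54 and 3.18 against 44.8, 28.2 and 24.2 FPKM (log2 difference -2.83, SE 0.27, adjusted p = 2.24e-07) and Hcar2 at 0.567, 0.641 and 0.849 against 11.5, 7.18 and 6.01 FPKM (log2 difference -2.41, SE 0.22, adjusted p = 1.44e-07). They are neighbouring paralogs, Hcar1 on chromosome 5, 123876736 to 123880020 and Hcar2 on chromosome 5, 123863570 to 123865499, and reads common to both may have been split.

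Several secreted products were among the largest falls. Igf1, insulin-like growth factor 1, was at 2.28, 1.68 and 2.21 FPKM against 18.1, 11.5 and 11.3 FPKM, a difference of -2.23 (SE 0.25, adjusted p = 2.24e-06). Cfd, the complement protease adipsin made by fat cells, was at 330.1, 317 and 529 against 1685, 1271 and 1596 FPKM (log2 difference -1.98, SE 0.19, adjusted p = 2.09e-07), and Hp, haptoglobin, which binds free haemoglobin, at 121, 146 and 193 against 608, 366 and 819 FPKM (log2 difference -1.91, SE 0.23, adjusted p = 4.3e-06). Neither overlapped between groups. Pon1, paraoxonase, fell by 1.97, and Svep1, an extracellular matrix protein, fell by 2.47. Steap4, a metalloreductase of fat cells, fell by 2.10, Net1, an activator of RhoA, fell by 2.42, and B3galt2, a galactosyltransferase, fell by 1.97.

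Nr4a1, an orphan nuclear receptor and immediate-early gene, completed the 12 largest falls with values that scattered more. It was at 1.65, 15.7 and 13.8 FPKM against 135, 42.6 and 71.1 FPKM, a difference of -3.11 (SE 1.01, adjusted p = 0.0329). The groups did not overlap, but the call was lost without cold plus fasting replicate 1 or 3 or without fed replicate 1 or 3, with adjusted p up to 0.149 and differences between -3.59 and -2.26. Among 14 immediate-early genes 0 rose and 2 fell, against 10.6% and 9.23% of all genes. The other fall was that of Nr4a3 (log2 difference -1.12, SE 0.34, adjusted p = 0.0253). Its call was lost without cold plus fasting replicate 1 or 2 or fed replicate 3 (adjusted p up to 0.122, differences between -1.31 and -0.84). Neither of the pair passed without cold plus fasting replicate 1 or without fed replicate 3.

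**Figure D2:**
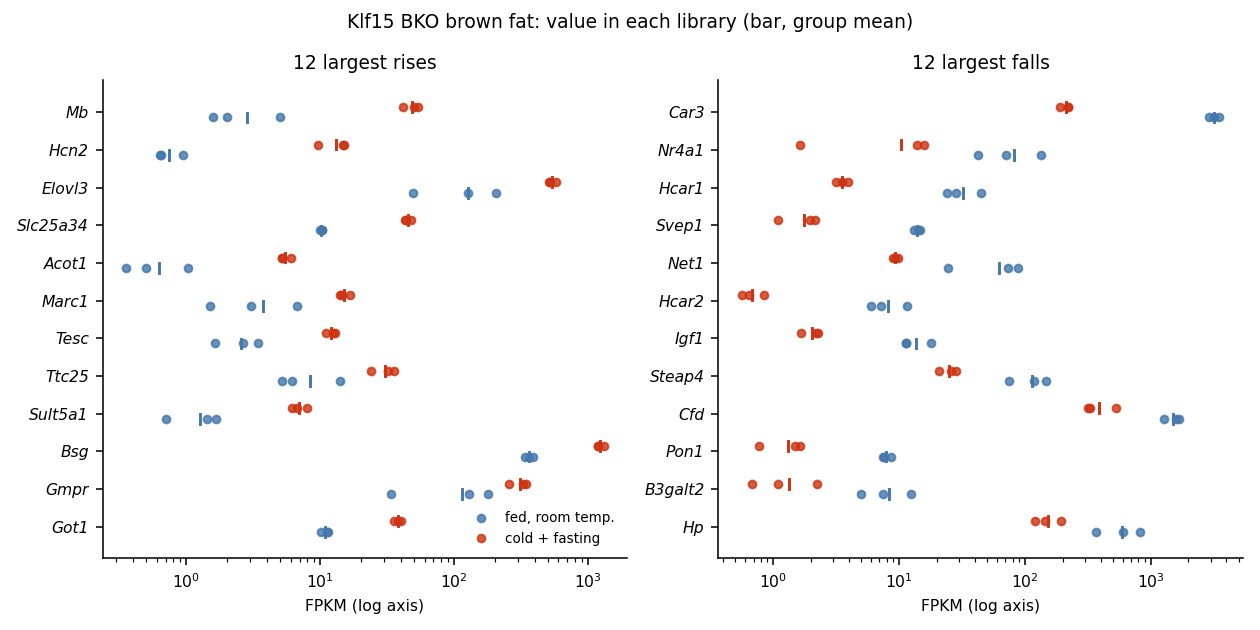
FPKM in each of the 6 libraries (log axis) for the 12 largest rises and 12 largest falls that passed the threshold without overlap, with bars at the group means. Cold plus fasting values (red) of Mb lie between 41.5 and 53.8 FPKM and those of Car3 between 192 and 222 FPKM, clear of the fed values (blue).

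Ucp1 rose, and other thermogenic genes rose or fell singly. Of 24 thermogenic effectors and regulators tested, 7 rose and 3 fell, against 10.6% and 9.23% of all genes, with a median difference of 0.09. Ucp1, the uncoupling protein (ENSMUSG00000031710.4, chromosome 8, 83290352 to 83298452), was at 7785, 7973 and 8001 FPKM in cold plus fasting against 3908, 4768 and 4474 FPKM in fed libraries, a ratio of means of 1.81. Every cold plus fasting library exceeded every fed library, with a difference of 0.86 (SE 0.20, adjusted p = 0.00736). Under quantile normalization, which forces the same distribution on every library, Ucp1 no longer passed (0.22, adjusted p = 0.650002), and 4 of the list rose and 4 fell. Ucp1 is listed at 0 in all 4 BKO cold libraries, so that its level in cold alone has no value.

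Letmd1, a mitochondrial protein of brown fat, rose by 0.66 (SE 0.08, adjusted p = 1.29e-05), and Slc27a2, a fatty acid transporter and acyl-CoA synthetase, by 0.80 (SE 0.20, adjusted p = 0.00688). Ppara, the nuclear receptor for fatty acids, was at 38.99, 30.2 and 14.6 against 59.5, 71.1 and 68.1 FPKM and fell (log2 difference -1.32, SE 0.25, adjusted p = 0.000725). Dio2, the deiodinase that activates thyroid hormone, was at 18.3, 42.4 and 22.6 FPKM against 52.4, 47.9 and 55.1 FPKM: the groups did not overlap, yet the difference of -0.96 (SE 0.40, adjusted p = 0.0911) did not pass. Ppargc1a, the coactivator of mitochondrial biogenesis, stood at 11.5, 9.88 and 7.52 FPKM against 5.86, 17.99 and 23.7 FPKM with overlapping groups (log2 difference -0.49, SE 0.36, adjusted p = 0.359). The beta-3 adrenergic receptor Adrb3 was at 131, 149 and 212 against 183, 116 and 169 FPKM, overlapping as well (log2 difference 0.07, SE 0.30, adjusted p = 0.9). With 1 library left out, 5 to 7 members of the list rose, and 1 to 5 fell, the 5 without cold plus fasting replicate 2 and the 1 without cold plus fasting replicate 3, which was also the count of falls in the fit of the 6 libraries.

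Among 30 genes of beta adrenergic and cyclic AMP signalling, 1 rose and 6 fell, against 10.6% and 9.23% of all genes. Of those that fell, 3 were receptors that inhibit adenylyl cyclase: Hcar1, Hcar2 and Adora1, the adenosine A1 receptor, at 20.1, 20.5 and 16.4 FPKM against 44.7, 35.9 and 31.9 FPKM (log2 difference -0.94, SE 0.14, adjusted p = 0.000111). The others were the adenylyl cyclase Adcy9 (-1.17), the regulator of G protein signalling Rgs2 (-1.67) and the coactivator Crebbp (-0.36), whose groups overlapped. The rise was that of another adenylyl cyclase, Adcy3 (0.92). Without cold plus fasting replicate 3 the falls numbered 3, and without fed replicate 1 no member rose.

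Secreted factors split into rises and falls. Bmp8b, a growth factor made by brown fat, was at 5.27, 6.21 and 2.63 FPKM against 0.659, 0.0372 and 0.0162 FPKM, nearly all fed values being close to 0, and differed by 2.18 (SE 0.33, adjusted p = 8.45e-05). Fgf21, the hormone of fasting and cold, was low in both groups but without overlap, at 1.06, 1.18 and 2.08 against 0.131, 0.179 and 0.258 FPKM (log2 difference 1.02, SE 0.22, adjusted p = 0.00286). Ephx1, an epoxide hydrolase placed in this list, was at 30.6, 30.9 and 31.1 against 18.8, 11.1 and 8.42 FPKM (log2 difference 1.28, SE 0.20, adjusted p = 0.000135). In all, 6 of 22 rose and 5 fell, against 10.6% and 9.23% of all genes.

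Of other adipokines in this list Retn and Lcn2 fell, Lep did not pass, and the call of Adipoq was lost in several fits. Retn, resistin, was at 17.9, 16.4 and 28.9 FPKM against 67.1, 33.1 and 45.3 FPKM (log2 difference -1.15, SE 0.28, adjusted p = 0.00567), and Lcn2, lipocalin 2, at 0.1497, 0.445 and 0.234 against 1.43, 1.03 and 2.05 FPKM (log2 difference -0.96, SE 0.14, adjusted p = 4.41e-05). Lep, leptin, was at 4.62, 5.12 and 4.51 against 9.17, 7.36 and 14.2 FPKM, without overlap, but its difference of -0.92 (SE 0.39, adjusted p = 0.0985) did not pass. Adipoq, adiponectin, was at 527, 599 and 649 against 741, 697 and 804 FPKM. Its difference of -0.34 (SE 0.12, adjusted p = 0.0472) was lost without cold plus fasting replicate 1 or 2 or without any 1 fed library (adjusted p up to 0.168, differences between -0.41 and -0.26), and also with only the 6 libraries.

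Of the genes of mitochondrial fatty acid oxidation more rose than fell. Of 26 tested, 14 rose and 1 fell, with a median difference of 0.27, beside 10.6% and 9.23% of all genes. Mlycd, malonyl-CoA decarboxylase, which removes the inhibitor of fatty acid entry into mitochondria, was at 117, 129.8 and 158 FPKM against 66.4, 65.2 and 72.7 FPKM (log2 difference 0.96, SE 0.12, adjusted p = 1.08e-05). Cpt2, the inner membrane carnitine palmitoyltransferase, was at 425, 439 and 463 against 329, 276 and 273 FPKM (log2 difference 0.60, SE 0.09, adjusted p = 7.23e-05). In the beta-oxidation spiral, Acadvl, the very long chain acyl-CoA dehydrogenase, was at 1442, 1543 and 1695 against 1088, 1108 and 1174 FPKM (log2 difference 0.47, SE 0.07, adjusted p = 6.02e-05), and the trifunctional protein subunits Hadha and Hadhb differed by 0.56 and 0.48. The carnitine carrier Slc25a20 differed by 0.48 (SE 0.08, adjusted p = 0.000219). Cpt1b, the outer membrane enzyme of entry, was at 420.2, 453 and 460.2 against 353, 419.9 and 467 FPKM with overlap (log2 difference 0.11, SE 0.11, adjusted p = 0.489). In the fit of the 6 libraries 8 members rose, and under quantile normalization 9 rose and 3 fell.

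Genes known to respond to peroxisome proliferator-activated receptors and fasting divided by member. Of 18 tested, 8 rose and 0 fell, against 10.6% and 9.23% of all genes (5 rose without cold plus fasting replicate 2, as many as with the 6 libraries alone). Besides Acot1, Acot2 and Slc25a20, Plin2, a lipid droplet coat protein, was at 848, 769 and 964 FPKM against 619, 461 and 445 FPKM (log2 difference 0.77, SE 0.18, adjusted p = 0.00552). Pdk4, the kinase that shuts pyruvate dehydrogenase in fasting, was at 723, 968 and 718 FPKM against 868, 733 and 844 FPKM, a difference of -0.03 (SE 0.21, adjusted p = 0.94). Angptl4, the secreted inhibitor of lipoprotein lipase, was at 49.5, 83.5 and 54.3 against 101, 72.4 and 132 FPKM (log2 difference -0.69, SE 0.31, adjusted p = 0.127), and both genes overlapped between groups. The differences of Plin5, a droplet protein (0.30), and Gk, glycerol kinase (0.32), did not pass either.

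Of 32 peroxisomal genes 7 rose and 1 fell, against 10.6% and 9.23% of all genes. The counts of rises were 4 without cold plus fasting replicate 3, 4 without fed replicate 2 and 3 without fed replicate 3 or in the fit of the 6 libraries. Over all genes these fits called 1402, 1450, 2035 and 815 in either direction, against 2331 in the fit of all 26 libraries. The 10.6% and 9.23% belong to that last fit and are no background for the smaller counts. Abcd2, a peroxisomal importer of very long chain fatty acids, was the one that fell, at 4.17, 3.57 and 3.58 FPKM against 22.7, 11.5 and 10.8 FPKM (log2 difference -1.67, SE 0.24, adjusted p = 5.04e-05). Hsd17b4, the multifunctional enzyme of peroxisomal oxidation (0.50), and Scp2, the peroxisomal thiolase and sterol carrier (0.42), both rose.

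Genes at more than 1 step of glycolysis rose. Of 23 genes of glucose uptake and glycolysis, 13 rose and 2 fell, against 10.6% and 9.23% of all genes. With any 1 of the 6 libraries left out 12 or 13 rose, and the median difference was 0.49. Gpi1, glucose-6-phosphate isomerase, was at 488, 410.3 and 423 FPKM against 296, 228 and 207 FPKM (log2 difference 0.86, SE 0.12, adjusted p = 3.61e-05). Pfkl, the liver-type phosphofructokinase, was at 447, 445 and 437 against 254, 236 and 236 FPKM (log2 difference 0.87, SE 0.13, adjusted p = 7.39e-05). Farther down the pathway Pgk1 (0.50), Pgam1 (0.62), Pkm, pyruvate kinase (0.78), and Ldha, lactate dehydrogenase A (0.60), rose too. The insulin-responsive glucose transporter Slc2a4 was nearly equal, at 317, 297 and 318 FPKM against 321, 295 and 325 FPKM (log2 difference -0.01, SE 0.11, adjusted p = 0.946). The 2 genes of the list that fell did not pass without cold plus fasting replicate 3 or without fed replicate 2.

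In the pentose phosphate pathway 5 of 8 genes rose, against 10.6% of all genes. Rpia, ribose-5-phosphate isomerase, was at 32.2, 29.5 and 36.5 FPKM against 15.3, 14.9 and 13.4 FPKM (log2 difference 1.12, SE 0.21, adjusted p = 0.000759). The count of rises was 3 without cold plus fasting replicate 1. It was 2 without cold plus fasting replicate 3, fed replicate 2 or fed replicate 3, and 1 in the fit of the 6 libraries or under quantile normalization. Mpc2, a subunit of the carrier that takes pyruvate into mitochondria, was at 850.3, 858 and 1079 against 559, 534 and 514 FPKM (log2 difference 0.79, SE 0.10, adjusted p = 6.81e-06), the smallest adjusted p among 14 genes of the pyruvate dehydrogenase gate, of which 5 rose. That count lay between 1 and 5 with 1 library left out, lowest without fed replicate 2, and at 2 or 3 without fed replicate 3 or any cold plus fasting library. It was 1 in the fit of the 6 libraries and under quantile normalization. The count of 5 stands beside 10.6% of all genes that rose in the fit of all 26 libraries. Over all genes the fit of the 6 libraries called 815 in either direction, against 2331 in that fit.

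Mitochondrial energy genes showed small differences, mostly positive, and their counts stand beside 10.6% and 9.23% of all genes that rose and fell. In the tricarboxylic acid cycle 5 of 17 rose and 0 fell, such as Suclg2, the GTP-forming succinyl-CoA ligase subunit (log2 difference 0.46, SE 0.08, adjusted p = 0.000472), and 1 rose in the fit of the 6 libraries. Among 44 nuclear subunits of oxidative phosphorylation, 41 had a positive difference, 16 rose and 0 fell. Ndufa9 of complex I was at 439, 478 and 509 FPKM against 346, 351 and 344 FPKM (log2 difference 0.45, SE 0.08, adjusted p = 0.000289), and Atp5b, the catalytic subunit of ATP synthase, at 4855, 4954 and 5206 against 3411, 3349 and 3654 FPKM (log2 difference 0.53, SE 0.07, adjusted p = 2.42e-05).

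The count of 16 was fragile: 6 rose without cold plus fasting replicate 3, fed replicate 1 or fed replicate 2, 2 in the fit of 6 libraries, and 4 under quantile normalization, where 2 fell and Atp5b lost its call. Of 34 mitochondrial ribosomal proteins all 34 had a positive difference and 8 rose, for example Mrps10 (log2 difference 0.48, SE 0.09, adjusted p = 0.000737), against 10.6% of all genes. Without cold plus fasting replicate 3 or fed replicate 2 4 of them rose, and 5 without fed replicate 1, beside 3 in the fit of the 6 libraries. The 34 cytosolic ribosomal proteins had a median of -0.15, with 1 that rose and 2 that fell, against 10.6% and 9.23% of all genes. Of these proteins 8 fell without cold plus fasting replicate 3 and 14 under quantile normalization.

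**Figure D3:**
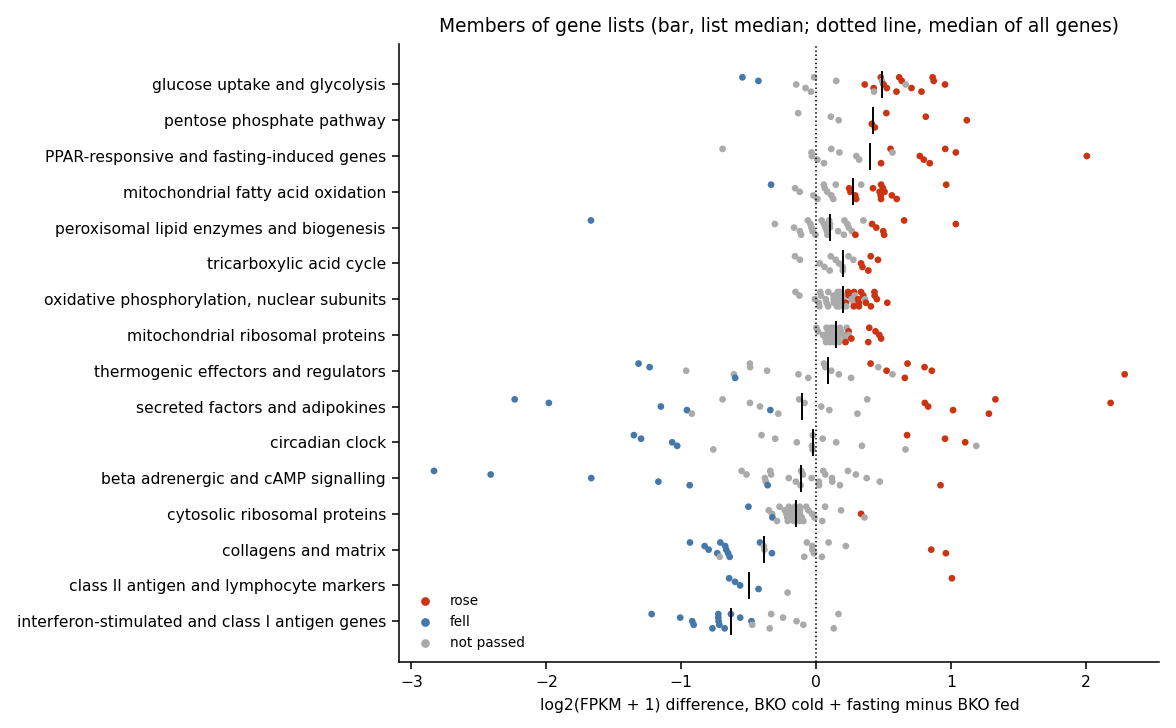
Differences between cold plus fasting and fed BKO libraries (log2(FPKM + 1), horizontal axis) for the tested members of 16 gene lists, 1 point per gene, coloured by whether the gene rose, fell or did not pass, with bars at the list medians. Glycolysis, at a median of 0.49, lies to the right of the median of all genes (dotted line) and the interferon and class I list, at -0.63, to its left.

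Genes of lipid synthesis and storage changed singly rather than as lists. Of 18 genes of fatty acid synthesis 3 rose and 1 fell, against 10.6% and 9.23% of all genes. Of the same genes 1 rose without cold plus fasting replicate 3 and 0 without fed replicate 2. Without fed replicate 3, 2 rose and 3 fell. Acly, ATP citrate lyase, which supplies cytosolic acetyl-CoA, was at 1403, 1032 and 1108 FPKM against 1567, 930.3 and 685 FPKM (log2 difference 0.23, SE 0.30, adjusted p = 0.625), and Srebf1, the transcription factor of fatty acid synthesis, at 81.04, 81.7 and 88.4 against 113, 90.3 and 86.4 FPKM (log2 difference -0.20, SE 0.20, adjusted p = 0.517). Both overlapped between groups. Acsl5, an acyl-CoA synthetase of triglyceride synthesis, was at 517, 489 and 484 against 241, 247 and 142 FPKM and rose (log2 difference 1.28, SE 0.22, adjusted p = 0.000317). Dgat2, which adds the last fatty acid to triglycerides, was at 578, 839 and 748 against 1002, 1221 and 1182 FPKM and fell (log2 difference -0.66, SE 0.14, adjusted p = 0.00225). Pck1, the enzyme of glyceroneogenesis, lay lower in every cold plus fasting library, at 1026, 1541 and 1372 against 1756, 1699.96 and 1959 FPKM, but did not pass (log2 difference -0.48, SE 0.18, adjusted p = 0.0609).

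Among lipid droplet genes, Plin4 fell (log2 difference -0.81, SE 0.15, adjusted p = 0.000872), and Mgll, monoglyceride lipase, rose (log2 difference 0.61, SE 0.13, adjusted p = 0.00279), except under quantile normalization. Lpl, lipoprotein lipase, was at 795, 1051 and 779.6 FPKM against 935, 1005 and 845 FPKM (log2 difference -0.10, SE 0.15, adjusted p = 0.702). Fads1, a fatty acid desaturase, fell (log2 difference -0.57, SE 0.11, adjusted p = 0.000693). Alpl, the phosphatase placed in the mitochondrial creatine cycle of fat cells, was at 23.1, 26.2 and 21.9 against 12.8, 9.08 and 7.31 FPKM (log2 difference 1.23, SE 0.18, adjusted p = 4.96e-05), and Ckb, the brain-type creatine kinase of that cycle, at 30.1, 41.3 and 37.7 against 8.96, 14.2 and 14.1 FPKM (log2 difference 1.49, SE 0.23, adjusted p = 9.97e-05). Neither gene overlapped between groups.

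Genes of amino acid breakdown moved unequally, and among them Prodh and Bcat2 are known as targets of KLF15. Prodh, proline dehydrogenase, was at 7.99, 13.03 and 10.996 FPKM against 7.56, 7.43 and 8.58 FPKM (log2 difference 0.38, SE 0.17, adjusted p = 0.124) and Bcat2, the mitochondrial branched-chain aminotransferase, at 48.5, 55.2 and 71.5 against 47.6, 43.7 and 48.7 FPKM (log2 difference 0.30, SE 0.13, adjusted p = 0.106), and neither passed. In branched-chain amino acid catabolism 6 of 23 rose, against 10.6% of all genes. They were led by Bckdhb, a subunit of the branched-chain keto acid dehydrogenase (log2 difference 0.56, SE 0.08, adjusted p = 2.39e-05), and Pcca of propionyl-CoA carboxylase (log2 difference 0.81, SE 0.11, adjusted p = 2.53e-05). Aldh6a1, of valine breakdown, fell (log2 difference -0.58, SE 0.13, adjusted p = 0.00297). The count of rises was 3 without cold plus fasting replicate 2 or without fed replicate 3 and 2 in the fit of the 6 libraries, and 4 members fell under quantile normalization. Fah, the last enzyme of tyrosine breakdown, was at 90.2, 85.6 and 93.3 against 42.9, 30.3 and 32.3 FPKM (log2 difference 1.34, SE 0.12, adjusted p = 6.13e-08), without overlap.

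Stress response genes did not share a direction. Atf5, a transcription factor of the mitochondrial stress response, was at 206, 183 and 229.9 FPKM against 99.6, 84.1 and 107 FPKM (log2 difference 1.08, SE 0.14, adjusted p = 2.08e-05), and Slc3a2, the heavy chain of amino acid transporters, rose (log2 difference 0.92, SE 0.20, adjusted p = 0.00218). Phgdh, the first enzyme of serine synthesis, was low and fell, at 0.551, 0.581 and 1.05 against 1.81, 1.63 and 3.09 FPKM (log2 difference -0.86, SE 0.17, adjusted p = 0.000955), and Sesn2, sestrin 2, fell (log2 difference -0.69, SE 0.17, adjusted p = 0.00765). Xbp1, a transcription factor of the unfolded protein response, fell by 0.71, and Rbm3, an RNA-binding protein known to be induced by low cell temperature, fell by 0.69, at 5.14, 4.89 and 5.98 against 7.81, 10.9 and 9.24 FPKM. Irs2, the insulin receptor substrate, was at 2.35, 11.1 and 2.07 FPKM against 22.7, 14.5 and 9.19 FPKM, with replicate 2 of cold plus fasting inside the fed range (log2 difference -1.64, SE 0.67, adjusted p = 0.0898). Of autophagy and proteasome genes 4 of 26 and 5 of 32 rose, against 10.6% of all genes, which is no clear departure from the background, with Gabarapl2, which acts in autophagosome formation (0.45), and Psmc4 of the proteasome cap (0.50) as the members of smallest adjusted p. Proteasome rises numbered 1 without cold plus fasting replicate 3 or fed replicate 2 and 2 without fed replicate 3, and those of autophagy 2 without fed replicate 2 or 3, with 1 and 2 in the fit of the 6 libraries.

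Single clock genes rose and others fell. The core clock is a loop in which ARNTL (BMAL1) and CLOCK activate the Per and Cry genes, whose products repress them, with output factors such as DBP. Of 19 clock genes 3 rose and 4 fell, against 10.6% and 9.23% of all genes. Arntl was at 9.75, 9.37 and 8.45 FPKM against 4.87, 4.05 and 3.87 FPKM (log2 difference 0.96, SE 0.17, adjusted p = 0.000397), and Cry1 at 9.36, 12.6 and 9.47 against 4.92, 3.65 and 4.38 FPKM (log2 difference 1.11, SE 0.21, adjusted p = 0.000766). Both were higher in every cold plus fasting library. Dbp was at 2.84, 2.54 and 3.002 against 5.44, 8.13 and 14.3 FPKM (log2 difference -1.35, SE 0.27, adjusted p = 0.00146), and Nr1d2, which encodes the repressor REV-ERB beta, at 8.15, 5.96 and 4.32 against 9.76, 14.1 and 16.7 FPKM (log2 difference -1.03, SE 0.25, adjusted p = 0.00583). The 3 fed libraries differed among themselves in these genes, replicate 1 being lowest for Dbp, Nr1d2, Per3 and Per1. Times of tissue collection are not given in the sources used here, and their part in these differences was not tested.

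Calls of other clock genes were lost when single libraries were left out. Per3 was at 3.47, 2.87 and 2.25 FPKM against 4.36, 6.49 and 11.9 FPKM (log2 difference -1.07, SE 0.29, adjusted p = 0.0118) and was lost without cold plus fasting replicate 3 or fed replicate 3 (adjusted p up to 0.0818, differences between -1.36 and -0.73). Per1 was at 2.4001, 9.91 and 6.86 against 8.98, 17.4 and 22.5 FPKM (log2 difference -1.30, SE 0.45, adjusted p = 0.0438) and was lost without cold plus fasting replicate 1 or 3 or fed replicate 2 or 3 (adjusted p up to 0.22, differences between -1.66 and -0.82). Without 1 library the falls of the list numbered between 2 and 5, lowest without replicate 3 of either group, and 2 in the fit of the 6 libraries. Bhlhe40, another repressor of the loop, had a difference of 1.19 (SE 0.46, adjusted p = 0.0687).

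Promoters of Per3 and Per1, which were among the clock genes that fell, are shown, since clock factors are known to bind E-boxes (CACGTG) and D-boxes. Dbp and Nr1d2 fell too, but their windows held no match to the letters searched and are not shown. Searched on both strands of the 250 bases before each RefSeq gene start (GRCm38.p6), CACGTG was in 6.02% of 32851 promoters and the D-box-like TTANGTAA in 2.06%. Capitals mark the matches, which in Per3 are D-box-like and begin 205 and 158 bases before the start, and in Per1 are an E-box 166 bases before the start of its first entry. Per3 lies on the minus strand at chr4:151044666-151044915, and Per1 on the plus strand at chr11:69098699-69098948.
Per3: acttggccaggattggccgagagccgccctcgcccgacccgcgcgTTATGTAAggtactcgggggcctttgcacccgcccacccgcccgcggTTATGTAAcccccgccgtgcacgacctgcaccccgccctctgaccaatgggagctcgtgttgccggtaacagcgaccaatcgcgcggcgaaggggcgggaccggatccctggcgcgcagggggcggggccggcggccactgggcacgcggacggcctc
Per1: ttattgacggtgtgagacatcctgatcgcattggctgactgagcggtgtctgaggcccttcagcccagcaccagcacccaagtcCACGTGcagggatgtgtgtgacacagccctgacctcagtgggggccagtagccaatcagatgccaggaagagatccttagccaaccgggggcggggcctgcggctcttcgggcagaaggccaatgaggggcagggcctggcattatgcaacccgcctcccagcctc
Of the 4 genes that fell, with 5 promoter entries, 1 held CACGTG (Per1) and 1 held TTANGTAA (Per3). Of 2 matched genes that rose, Cry1 held CACGTG, and of 10 matched genes that did not pass, 3 held CACGTG and 0 held TTANGTAA. A match describes the letters in this window and not binding.

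Genes of the interferon response and of class I antigen presentation were among those that fell. Class I molecules show peptides, cut by the immunoproteasome and carried by the TAP transporter, on the cell surface, and interferons raise the genes of this pathway. Of 21 interferon-stimulated and class I genes tested, 0 rose, 13 fell and 8 did not pass, against 10.6% and 9.23% of all genes, with a median difference of -0.63. With 1 library left out 11 and 13 were the lowest and highest counts, and 10 fell in the fit of the 6 libraries. Psmb8, an immunoproteasome subunit, was at 6.14, 5.83 and 9.34 FPKM against 16.3, 19.5 and 16.9 FPKM (log2 difference -1.22, SE 0.15, adjusted p = 6.24e-06), and its partner subunit Psmb9 at 4.22, 5.14 and 4.85 against 9.897, 12.1 and 9.69 FPKM (log2 difference -1.01, SE 0.15, adjusted p = 6.91e-05). Tap1, a subunit of the peptide transporter, was at 4.41, 3.83 and 4.38 against 8.08, 9.15 and 6.53 FPKM (log2 difference -0.77, SE 0.11, adjusted p = 7.52e-05). All 3 were lower in every cold plus fasting library.

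Class I chains were among the genes that fell. H2-K1 was at 118, 118 and 156 FPKM against 233, 216 and 194 FPKM (log2 difference -0.72, SE 0.10, adjusted p = 3.43e-05) and H2-D1 at 94.7, 92.4 and 119 against 164, 175 and 166 FPKM (log2 difference -0.72, SE 0.10, adjusted p = 2.39e-05), with cold plus fasting replicate 3 the highest of its group in both. These 2 genes are close paralogs, so reads may have been split between them. Gbp3, an interferon-induced guanylate-binding protein, was at 4.97, 4.89 and 4.93 against 8.71, 7.59 and 10.3 FPKM (log2 difference -0.72, SE 0.13, adjusted p = 0.000399). B2m, beta-2 microglobulin, the shared light chain of class I, was at 263, 244 and 261 against 489, 556 and 409 FPKM (log2 difference -0.91, SE 0.17, adjusted p = 0.000667), and Isg15, an interferon-induced ubiquitin-like protein, at 3.54, 2.34 and 4.33 against 5.57, 3.48 and 10.3 FPKM (log2 difference -0.68, SE 0.23, adjusted p = 0.0424). These latter 2 were named after their values and promoters were seen. The call of Isg15, whose groups overlapped, was lost without cold plus fasting replicate 1 or 2 or fed replicate 1 or 3 (adjusted p up to 0.288, differences between -0.99 and -0.33).

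Promoters of 4 of these genes are shown, since several members of the list fell and interferon regulatory factors are known to bind repeats with the core AANNGAAA. That core, chosen after these promoters had been seen, is short: it was found on either strand in 21.3% of all 32851 promoters of 250 bases, and TTCNNNGAA, the letters of the gamma-activated site, in 7.02%. Capitals mark AANNGAAA or its reverse complement. Isg15 held 4 matches, beginning 128, 76, 70 and 64 bases before the start, the last 3 overlapping, the first entry of Gbp3 held 3, at 132, 45 and 39, the last 2 overlapping, and B2m held 1, at 137. The Tap1 window held neither; it shares 225 bases with that of Psmb9, which starts on the opposite strand. Isg15 lies on the minus strand at chr4:156200819-156201068, and on the plus strand Gbp3 at chr3:142559794-142560043, B2m at chr2:122147437-122147686 and Tap1 at chr17:34187306-34187555.
Isg15: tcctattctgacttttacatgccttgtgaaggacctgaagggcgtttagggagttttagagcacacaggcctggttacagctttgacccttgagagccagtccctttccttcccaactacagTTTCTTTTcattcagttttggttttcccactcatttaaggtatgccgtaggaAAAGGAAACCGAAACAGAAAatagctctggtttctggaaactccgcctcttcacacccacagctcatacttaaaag
Gbp3: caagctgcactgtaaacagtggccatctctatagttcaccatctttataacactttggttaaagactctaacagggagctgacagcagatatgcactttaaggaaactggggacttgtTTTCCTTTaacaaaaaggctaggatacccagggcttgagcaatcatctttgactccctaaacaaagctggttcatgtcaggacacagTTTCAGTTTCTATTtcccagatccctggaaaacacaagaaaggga
B2m: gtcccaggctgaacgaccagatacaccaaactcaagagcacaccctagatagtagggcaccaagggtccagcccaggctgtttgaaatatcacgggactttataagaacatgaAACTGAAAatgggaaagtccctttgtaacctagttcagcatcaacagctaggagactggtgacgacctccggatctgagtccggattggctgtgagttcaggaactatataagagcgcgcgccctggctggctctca
Tap1: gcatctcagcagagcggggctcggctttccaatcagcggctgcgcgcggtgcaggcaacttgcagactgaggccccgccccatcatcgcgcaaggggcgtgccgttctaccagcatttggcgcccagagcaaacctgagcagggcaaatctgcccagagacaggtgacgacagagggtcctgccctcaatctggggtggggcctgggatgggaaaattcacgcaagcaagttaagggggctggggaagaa
Of the 13 genes of the list that fell, 12 matched a RefSeq promoter by symbol, and 8 of these held AANNGAAA and 2 held TTCNNNGAA. Of 8 that did not pass, 6 matched, and 3 held AANNGAAA and 2 held TTCNNNGAA.

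**Figure D4:**
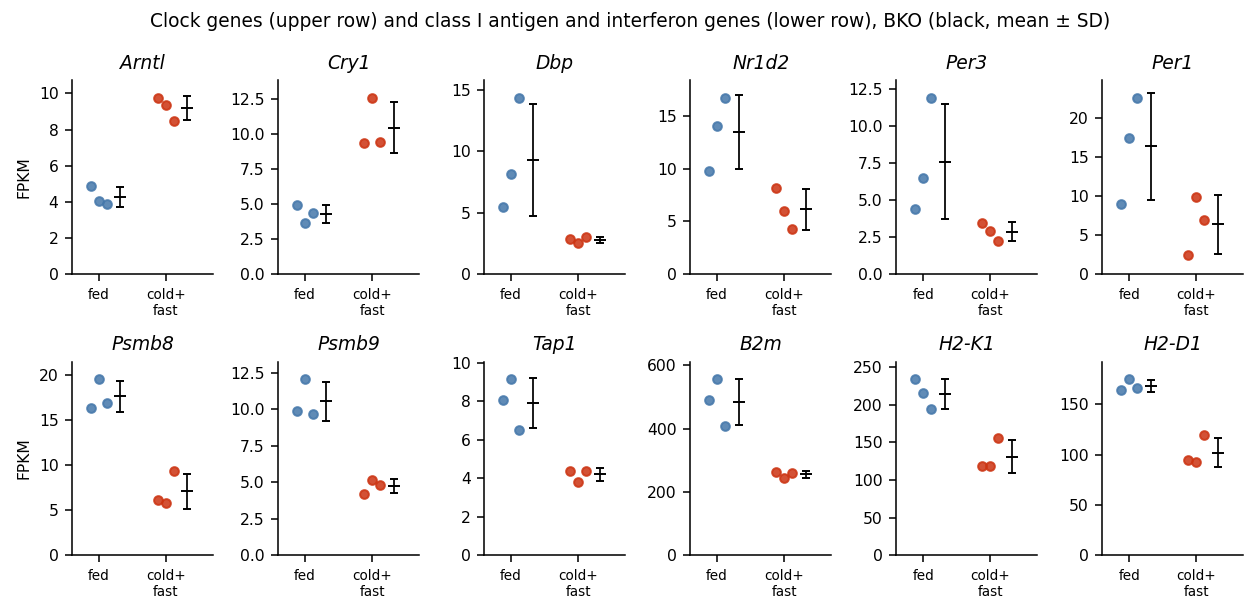
FPKM (vertical axes, from 0) in each fed (blue) and cold plus fasting (red) BKO library for 6 clock genes (upper row) and 6 class I antigen and interferon genes (lower row), with mean ± SD in black, n = 3 each. Arntl and Cry1 are higher, and Dbp and the antigen genes lower, in every cold plus fasting library, while Per1 overlaps.

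Class II antigen genes, which mark professional antigen-presenting cells, were among those that fell. Of 6 class II and lymphocyte markers tested 4 fell and 1 rose, against 9.23% and 10.6% of all genes. H2-Ab1 was at 20.99, 24.95 and 27.7 FPKM against 43.9, 34.3 and 38.4 FPKM (log2 difference -0.64, SE 0.13, adjusted p = 0.00141), H2-Aa differed by -0.60, and Cd74, the invariant chain, by -0.56 (SE 0.13, adjusted p = 0.00344). The 1 rise was Ighm (log2 difference 1.01, SE 0.33, adjusted p = 0.0319), an immunoglobulin heavy chain, at 17.6, 12.4 and 16.3 against 12.5, 6.94 and 3.93 FPKM, named after its values were seen; no member rose without cold plus fasting replicate 1 or 3 or fed replicate 2 or 3 (its adjusted p reached 0.183, with differences between 0.65 and 1.38). The whole list summed to 160 to 191 FPKM in cold plus fasting and 216 to 267 FPKM in fed libraries, with no marker at 0 in all 3 libraries of a group. Macrophage markers summed to 92.6 to 109 FPKM against 107 to 148 FPKM, and of 10 tested 0 rose and 0 fell. All 10 had a negative difference, with a median of -0.25. Without fed replicate 2 the falls numbered 2, and without cold plus fasting replicate 3 they numbered 1. The part of immune cells in the class I differences was not tested.

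Several collagen genes fell. Of 24 collagen and matrix genes 11 fell and 2 rose, against 9.23% and 10.6% of all genes, with a median of -0.39. Between 9 and 12 fell with 1 library left out and 4 in the fit of 6 libraries. Col6a3, a collagen VI chain, was at 3.72, 3.21 and 2.42 FPKM against 8.14, 4.92 and 7.75 FPKM (log2 difference -0.93, SE 0.17, adjusted p = 0.000628), and Col15a1 at 7.75, 5.83 and 5.502 against 13.8, 9.16 and 13.4 FPKM (log2 difference -0.83, SE 0.17, adjusted p = 0.00191). Mmp2, a gelatinase, differed by -0.73 and Col3a1, a fibrillar collagen, by -0.80. Fibroblast and progenitor markers summed to 313 to 390 FPKM against 385 to 490 FPKM, and 1 of 8 fell, near the share of all genes. Their part in the collagen values was not tested.

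Markers of other cells moved less evenly. Erythroid markers summed to 428 to 998 FPKM in cold plus fasting, the highest in replicate 3, against 174 to 473 FPKM in fed libraries, the highest in replicate 1. Hba-a1, an alpha globin, was at 93.4, 79.3 and 163 FPKM against 71.4, 36.1 and 29.6 FPKM (log2 difference 1.31, SE 0.32, adjusted p = 0.00607) and was lost without cold plus fasting replicate 3 (1.00, adjusted p = 0.0553). Of 6 erythroid markers 4 rose, against 10.6% of all genes. The rises numbered 0 without cold plus fasting replicate 3 and 2 without fed replicate 2 or 3. White adipocyte markers summed to 47.4 to 52.5 FPKM against 62.9 to 99.8 FPKM, with Hoxc9 at 0 in all fed libraries. Endothelial sums overlapped, at 295 to 362 FPKM against 313 to 350 FPKM, as did those of Schwann cells and neurons, at 70.8 to 87.0 FPKM against 70.2 to 84.6 FPKM, with Th at 0 in all fed libraries. Smooth muscle and pericyte markers summed to 158 to 190 FPKM against 160 to 172 FPKM, and neutrophil markers stayed under 13.2 FPKM in sum, with Ly6g and Mpo at 0 in all cold plus fasting libraries.

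The cold plus fasting libraries were next set beside cold and fasting given singly to BKO mice. These comparisons share libraries with the first, so only their own values are given. Against BKO cold (n = 4) 1 gene differed of 11737 tested, 0.00852%, and 1049 (8.94%) had an unadjusted p under 0.05. It was Sh3bp5, a binding protein of BTK and JNK, at 25.2, 26.9 and 22.5 FPKM in cold plus fasting, 35.6, 34.4, 36.3 and 36.4 FPKM in cold and 33.1, 36.7 and 30.8 FPKM in fed libraries (log2 difference -0.51, SE 0.08, adjusted p = 0.0219 against cold). That call was lost without any 1 of the cold libraries or without cold plus fasting replicate 1 or 3. Against BKO fasted at room temperature 5381 genes differed, 45.8%, of which 2821 (24%) were higher and 2560 (21.8%) lower in cold plus fasting. BKO cold minus fed gave 1990 genes (17%) and BKO fasted minus fed 3306 (28.2%).

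Several genes with large responses to fasting at room temperature stood nearer to the fed or cold than to the fasted levels in the libraries labelled cold plus fasting. Acly was at 78.5, 52.7 and 54.5 FPKM in fasted BKO libraries, where it fell by 4.02 against fed (adjusted p = 1.64e-09), but at 1403, 1032 and 1108 FPKM in cold plus fasting and 1704, 1315, 1306 and 1714 FPKM in cold. Pnpla3, a lipase family member that follows lipid synthesis, was at 21.6, 12.8 and 14.1 FPKM in fasted, 154, 106 and 132 FPKM in cold plus fasting and 141, 126 and 122 FPKM in fed libraries. For Slc2a4 the fasted values were 83.04, 85.7 and 109.8 FPKM and for Srebf1 20.6, 22.9 and 26.5 FPKM, both below every cold plus fasting and fed library given above. Lep was at 0.363, 0.0276 and 0.129 FPKM in fasted libraries, below its cold plus fasting values of 4.62, 5.12 and 4.51 FPKM, which in turn lay below every fed library and overlapped the cold ones, at 11.7, 8.77, 3.97 and 11.1 FPKM.

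Genes that were highest in fasted libraries gave the opposite picture. Hmox1, haem oxygenase 1, was at 367, 99.99 and 72.6 FPKM in fasted libraries, 10.3, 8.101 and 14.1 FPKM in cold plus fasting and 6.12, 4.596 and 8.72 FPKM in fed libraries. Peg3, an imprinted zinc finger gene, was at 40.3, 64.5 and 42.5 FPKM in fasted against 6.42, 7.61 and 4.503 FPKM in cold plus fasting and 3.9996, 10.9 and 5.33 FPKM in fed libraries. Lpl was at 1388, 1764 and 1659.8 FPKM in fasted libraries, above the 779.6 to 1051 FPKM of cold plus fasting, and Pdk4 at 1120.5, 1527 and 1125 FPKM, above 718 to 968 FPKM. In each of these genes the libraries labelled cold plus fasting lay apart from the fasted ones. How long the cold plus fasting mice went without food is not given in the sources used here.

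The difference between the libraries labelled cold plus fasting and cold was then tested against that between fasted and fed libraries, as (cold plus fasting minus cold) minus (fasted minus fed) in BKO mice. It holds a fasting response in the cold only as far as those labels do, since the food of the cold mice is not given. Of 11737 genes 1584 passed (13.5%), with 884 positive (7.53%) and 700 negative (5.96%). The largest positive values among genes of at least 5 FPKM were those of Acly (log2 difference 3.66, SE 0.40, adjusted p = 4e-06), Scd2, a stearoyl-CoA desaturase (log2 difference 3.44, SE 0.46, adjusted p = 2.81e-05), Pnpla3 (log2 difference 2.80, SE 0.29, adjusted p = 2.08e-06) and Ppp1r3b, a glycogen-targeting subunit of protein phosphatase 1 (log2 difference 2.74, SE 0.43, adjusted p = 0.000176). A ribosomal RNA gene, n-R5-8s1, also ranked here but is listed at 0 in all 4 cold libraries and is given no value. The largest negative values were Hmox1 (log2 difference -4.02, SE 0.59, adjusted p = 8.41e-05), Gfra1, a neurotrophic factor receptor (-3.18), Peg3 (-2.83), Pik3ip1, an inhibitor of phosphatidylinositol 3-kinase (-2.63), and Fbxo31, an F-box protein (-2.44).

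By list, 14 of 18 genes of fatty acid synthesis and 11 of 23 of glycolysis were positive in this test and 0 negative, beside 7.53% and 5.96% of all genes. Of the PPAR-responsive and fasting-induced genes 0 of 18 were positive and 5 negative. The value for Igf1 was 1.12 (SE 0.34, adjusted p = 0.0324): it was low in cold (4.41, 5.98, 2.46 and 4.43 FPKM), in fasted (2.59, 3.26 and 2.87 FPKM) and in cold plus fasting libraries alike. This call was lost without cold replicate 3, cold plus fasting replicate 1 or 3, fed replicate 1 or fasted replicate 1 or 3, with adjusted p up to 0.105. In direct comparison with fasted libraries, the largest positive differences were those of Acly (4.24), Ttc25 (4.18), Scd2 (3.87), Acsl5 (3.72) and Acot11 (3.64), an acyl-CoA thioesterase, and the largest negative ones those of Nr4a1 (-4.31), Hmox1 (-3.60), Car3 (-3.40), Irs2 (-3.16) and B3galt2 (-2.87).

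**Figure D5:**
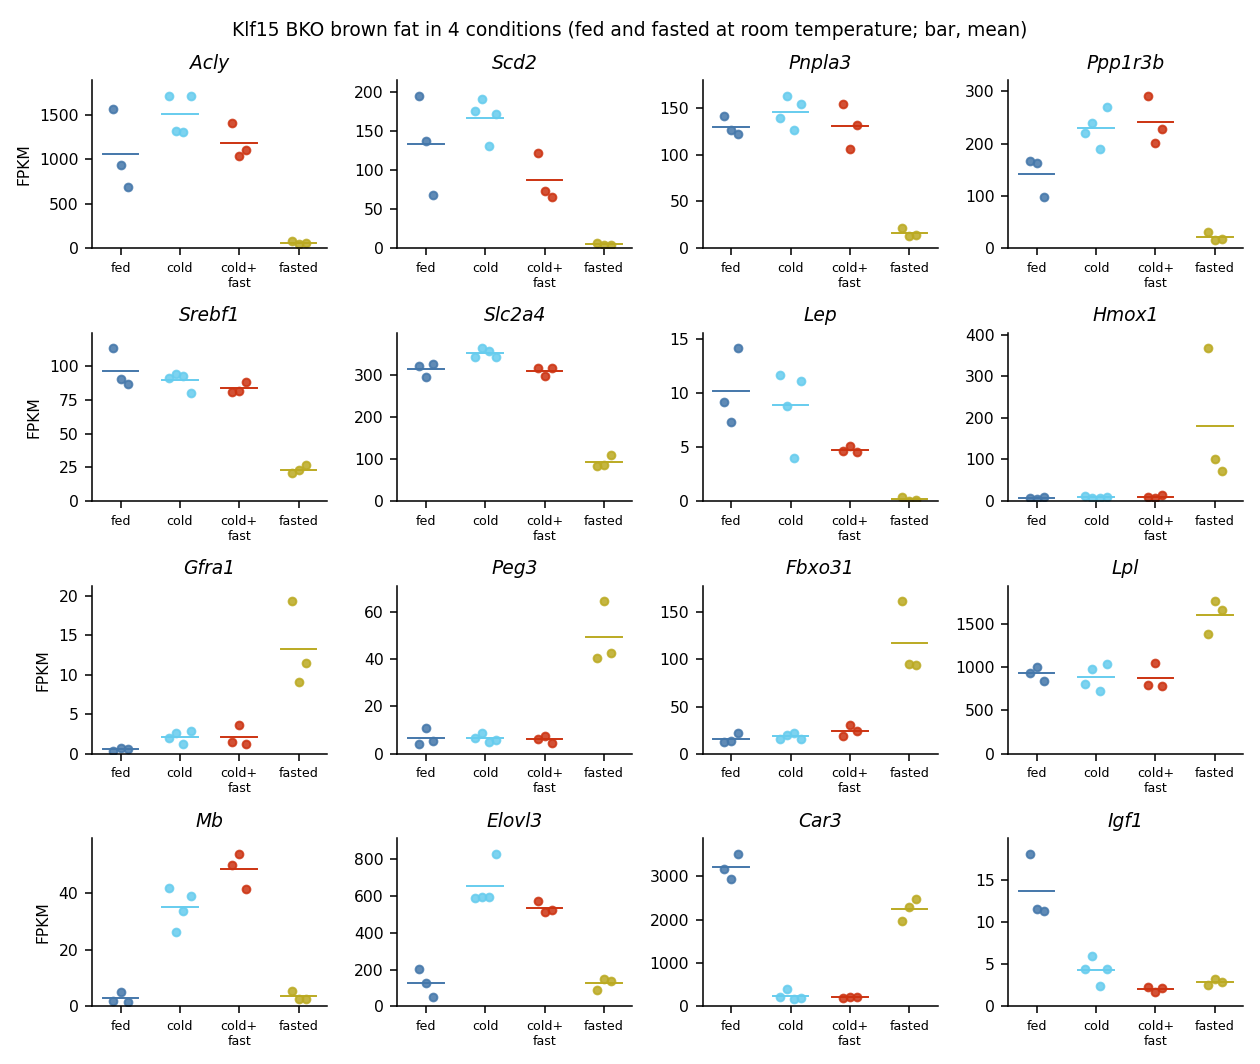
FPKM (vertical axes, from 0) in each BKO library in the 4 conditions, with bars at the means, for 16 genes. Acly, Scd2, Pnpla3, Ppp1r3b, Srebf1, Slc2a4 and Lep are lowest in the fasted libraries and Hmox1, Gfra1, Peg3, Fbxo31 and Lpl highest there, without overlap with any other condition, whereas Mb, Elovl3 and Car3 separate both cold groups from the others.

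The genotype comparison asks whether the response depended on Klf15 in brown adipocytes. In FF mice 2484 genes (21.2%) differed between cold plus fasting and fed libraries. No gene passed the test of the difference between the 2 responses: 0 of 11737 (0%) by limma, with 428 (3.65%) at an unadjusted p under 0.05. Library numbers were 7, 8 and 31 for FF fed replicates 1 to 3 and 22, 23 and 20 for FF cold plus fasting. The FF fed libraries thus lie on both sides of number 15, and the other libraries of this test above it. With a term for this range of numbers, 0 genes passed as well. Without FF fed replicate 3, number range and condition coincide in FF mice. Mb was at 61.6, 57.1 and 24.7 FPKM in FF cold plus fasting and 2.47, 2.51 and 1.302 FPKM in FF fed libraries, a response of 3.90 against 3.77 in BKO mice. For Car3 the responses were -3.42 in FF and -3.92 in BKO, for Elovl3 2.45 and 2.29, for Ucp1 1.28 and 0.86, for Psmb8 -1.21 and -1.22, and for Pfkl 0.87 and 0.87.

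The smallest p in that test belonged to Anxa8, an annexin, named after its values were seen. It was at 0.1605, 0.141 and 0.275 FPKM against 2.13, 1.54 and 1.597 FPKM in BKO and 0.453, 0.474 and 0.353 against 5.93, 6.598 and 4.14 FPKM in FF libraries, so that it fell in both genotypes, by 1.20 and 2.18. The difference of the responses was 0.98 (SE 0.17, adjusted p = 0.0848), which among the alternatives tried passed without FF fed replicate 3, without BKO fed replicate 1 or under quantile or median-of-ratios scaling. Without cold plus fasting replicate 1 the gene that passed was Spen, and without BKO fed replicate 1 Fndc5 passed beside Anxa8. Klf15 responded by -0.19 in BKO and -0.63 in FF mice, a difference of 0.44 (SE 0.27, adjusted p = 0.999). A test of this kind that misses the threshold does not show that the genotypes responded alike: the standard errors of the differences of responses were 0.446 for Mb, 0.288 for Ucp1 and 0.184 for Pfkl.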

How the data were processed

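RNA-seq of mouse brown adipose tissue was deposited as 1 table of FPKM per gene; per the submitters' processing notes, STAR, Cufflinks and Cuffdiff were used with mm10, no version of them being given in the sources used here, and the authors made the FPKM values from those reads. Gene positions came from GENCODE M21 (GRCm38), to which 48051 of 48432 IDs matched, and promoters from RefSeq (GRCm38.p6). Values of exactly 0 in 33 genes that other libraries gave at 100 FPKM or more were treated as failed estimates and as missing, 31 of these genes touching the 6 libraries. Most of them are small RNA or predicted genes listed at 0 in 23 to 25 of the 26 libraries. For those a failed estimate cannot be told from absence. The genes, lists and comparisons were chosen with earlier results of these data known, so that no pattern of a list is independent support.

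Genes with at least 1 FPKM in 3 of the 6 libraries were fitted with limma 3.58.1 in R 4.3.3 on log2(FPKM + 1), with a mean for each of 8 groups over 26 libraries, a trend in the variance, and Benjamini-Hochberg adjustment over all genes tested at a threshold of 0.05. The procedure was tested on simulated data first. Named genes were a list of fixed genes, the 12 largest rises and falls past the threshold without overlap and with a group mean of at least 5 FPKM, up to 6 members of each list by smallest adjusted p, and the 5 largest each way in the other tests; predicted genes and pseudogenes were passed over, and some genes that the rule names are not reported here. Alternatives were another pseudocount, filter, scaling and set of libraries, a term for the range of library numbers, and leaving out each library in turn.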

Additional observations from a re-analysis of the deposited data

Results flagged for a closer look

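In BKO mice (cold plus fasting minus cold) and (fasted minus fed) differed in 1584 genes by the test of the difference itself. The libraries labelled cold plus fasting and cold differed from each other in 1 gene, and whether the cold mice had food is not given, so this is a difference between labelled groups and need not be one between responses to fasting. Among genes described above, positive log2 values were found for Acly (3.66), Scd2 (3.44), Pnpla3 (2.80), Ppp1r3b (2.74), Lep (2.53), Srebf1 (1.90), Slc2a4 (1.58) and Igf1 (1.12). Negative log2 values were found for Hmox1 (-4.02), Gfra1 (-3.18), Peg3 (-2.83), Pik3ip1 (-2.63), Fbxo31 (-2.44) and Lpl (-0.80). The value of Igf1 lost its call without cold replicate 3, cold plus fasting replicate 1 or 3, fed replicate 1 or fasted replicate 1 or 3, and under a pseudocount of 0.1 or without the filter.

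One BKO cold library stood apart in Elovl3, at 829.7 FPKM, with the others at 589.7, 595 and 593 FPKM. The gap to the nearest of the others, as a share of the range, passed the limit of Dixon's test in 1 of 23 genes tested in that group, where chance gives about 1 in 20.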

How the results depend on the processing

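The count of genes between cold plus fasting and fed BKO libraries was 815 in the fit of the 6 libraries alone and 1402 to 2335 with 1 library left out, lowest without cold plus fasting replicate 3 and without fed replicate 2 (1450); the smaller fits have fewer samples behind the spread. The difference between genotypes gave 1 gene, Anxa8, under quantile normalization and 1 under median-of-ratios scaling, and 0 to 2 with 1 library left out; the cause was not tested. Against BKO cold, 2 genes passed without the filter on low values, 0 in the fit of the 13 BKO libraries, 0 with libraries numbered 15 and above only, and 0 to 1 with 1 library left out. Counts of the additivity test were 1131 to 1520 and those against fasted libraries 4613 to 5012 with 1 library left out. Of 141 genes named, 110 passed in the comparison with fed libraries and 93 of these passed under every alternative in which they were tested; none turned its direction while called. Leaving out 1 library lost at most 9 of the 110 (fed replicate 3), and the fit of the 6 libraries lost 12. No paired analysis was possible because the labels give no replicate numbers shared between the groups, the replicate numbers used here following accession order. Without read counts the depth behind low FPKM values is unknown.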

Other observations

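The counts of gene groups not described above stand beside 10.6% of all genes that rose and 9.23% that fell. Of 25 genes of cholesterol synthesis and uptake 4 rose and 1 fell, among them Fdps, farnesyl diphosphate synthase (0.95), and Sc5d (0.68), which rose, and Ebp (-0.28), which fell. The rises numbered 1 without cold plus fasting replicate 3 or fed replicate 3 and 2 without fed replicate 2. In the lipoprotein lipase axis and fatty acid uptake 5 of 15 rose, led by Fabp3, a fatty acid-binding protein (0.84), with Angptl8, a lipase regulator made in response to feeding (1.33), and Slc27a1, a fatty acid transporter (0.50), and 2 fell, the receptors Vldlr (-0.61) and Lrp1 (-0.50). In that list 3 rose without cold plus fasting replicate 1 or 3 or any 1 fed library, and 0 fell without cold plus fasting replicate 3 and 1 without fed replicate 1 or 2. Got2, the mitochondrial partner of Got1, rose by 0.76 as well.

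Chaperones and cytosolic heat shock genes gave 2 rises of 19 and 3 of 17, against 10.6% of all genes, which is no clear departure from the background. Manf, a secreted stress protein of the endoplasmic reticulum, rose by 0.71, and 0 of the endoplasmic reticulum list rose without cold plus fasting replicate 3. Hsph1 (0.93), Dnajb1 (0.71) and Dnaja1 (0.64), chaperones of the cytosol, rose in the opposite direction to Rbm3; none of these heat shock genes passed without cold plus fasting replicate 1 or 3 or fed replicate 2. Of 20 glucocorticoid-responsive genes and metallothioneins 0 rose and 3 fell, against 10.6% and 9.23% of all genes. The 3 were Lcn2, Per1 and Tsc22d3, the leucine zipper protein GILZ (-0.87). Without cold plus fasting replicate 1 or 3 or fed replicate 3 the falls numbered 1. Foxo1, a transcription factor restrained by insulin, fell by 0.78, and Ccng2, a cyclin known as its target, rose by 0.81. In a list of 21 genes of insulin signalling they were the 1 fall and the 1 rise, against 9.23% and 10.6% of all genes. That list held 0 falls without cold plus fasting replicate 1 or 3, fed replicate 2 or the filter, or in the fit of the 6 libraries. Ccnd1, cyclin D1, rose by 0.90. Of 11 Kruppel-like factors tested, the targeted gene included, Klf6 (-0.58) and Klf7 (-0.44) fell, against 9.23% of all genes. Neither passed without cold plus fasting replicate 3 or fed replicate 2.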
